A study of Mus musculus with 18 samples.

Results

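The effect of the *Ccny* knockout on hippocampal RNA was measured jointly over 3 training states. All 18 libraries of the study entered, 9 of hippocampus from *Ccny* knockout (KO) mice and 9 from wild-type (WT) mice, and all 15329 listed genes were tested. Libraries were chosen by the genotype in their labels alone. The mice were C57BL/6J, 8 to 10 weeks old. They were untrained (WT_Basal and KO_Basal), had learned the platform position of a Morris water maze, termed original learning (groups WT_OL and KO_OL), or had learned it and then a reversed position, termed reversal learning (groups WT_RL and KO_RL), with 3 libraries in each of the 6 groups. Each library came from a separate mouse. The sources used here do not describe how the *Ccny* allele was made. The question was which genes differed between *Ccny* KO and WT mice in the same direction whatever the training. The difference within 1 state rests on 3 libraries per genotype, and the joint difference on 9.

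Cyclin Y, the product of *Ccny*, is a cyclin that is anchored to membranes by a lipid. It binds kinases of the Cdk14 and Cdk16 family and is known in Wnt signalling, where the kinase it activates phosphorylates a Wnt co-receptor. In neurons it is found at the postsynaptic membrane, where it restrains the delivery of AMPA receptors during long-term potentiation. Actin remodelling through cofilin, which LIM kinases inactivate by phosphorylation, is the downstream pathway that was followed in these mice.

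Values are TMM-normalized CPM, that is, reads on a gene scaled to a common library size. Differences are KO minus WT on the log2(CPM + 1) scale, which understates the change of genes near or under 1 CPM, and were tested with limma with training state as a block. A gene is said to have passed, or to have risen or fallen, where its Benjamini-Hochberg adjusted p was under 0.05 over all 15329 genes. The labelled tissue was checked by *Prox1* and *C1ql2* of dentate granule cells, *Wfs1* and *Fibcd1* of CA1, *Grik4* of CA3, and *Neurod6* of pyramidal neurons, and these genes lay between 34.4 and 287 CPM in every library. The libraries held 29248557 to 37915576 reads on genes, with a median of 32801080. WT_OL replicate 2 stood apart from its group, with a chi-square per gene of 46.6 and 105 against the other WT_OL libraries, which differed from each other by 24.1, and with the lowest weight of the 18, 0.142, in a fit with library weights. The WT_RL libraries all differed from one another, by 36.5 to 72.2, with WT_RL replicate 3 the farthest from the others. WT_RL replicate 1 had the lowest summed levels of oligodendrocyte, meningeal and choroid plexus markers. Leaving it out changed the number of genes that passed more than leaving out any other library. It was singled out after this was seen. Its library weight was 0.82, above 0.434 for WT_RL replicate 2 and 0.584 for WT_RL replicate 3, and without either of those 4 genes passed. Leaving out a WT library low in a marker raises the WT mean, so a marker's call gained without WT_RL replicate 1 is not further support. In the same way, leaving out a WT library high in a gene lowers the WT mean. A call of a higher gene gained without such a library is not further support either. Genes named below whose call differed without WT_OL replicate 2, without WT_RL replicate 1 or without both are given with those values.

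Of the 15329 genes 8 passed, or 0.0522%. *Ccny* itself and *Clec14a*, *Hs3st1*, *Cytl1* and *Trim59* fell, which makes 5 genes or 0.0326%. *Znrf1*, *Tmem151b* and *Ptpn1* rose, which makes 3 genes or 0.0196%. All 8 had the same direction in each of the 3 states. The median difference over all genes was 0.00303 and the median of its absolute value 0.0572, so that each of the 8 lay outside the range of 0.212 on either side of 0 that held 95% of genes. Without an adjustment 1133 genes, or 7.39%, had a p under 0.05, 571 of them higher in *Ccny* KO mice (3.72%) and 562 lower (3.67%).

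**Figure D1:**
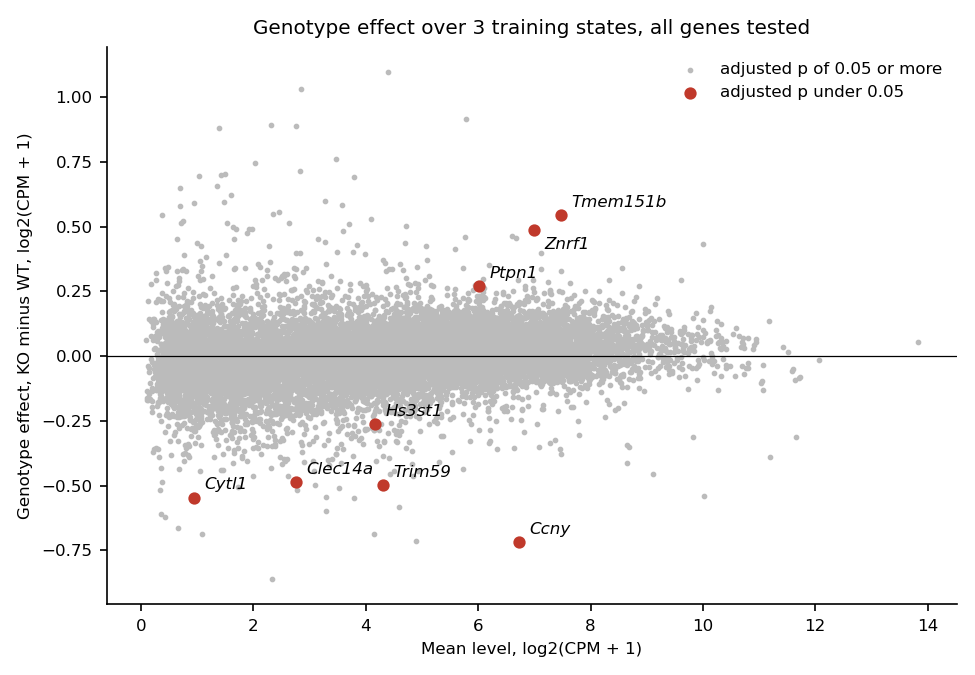
Genotype effect (KO minus WT, log2(CPM + 1), vertical axis) against the mean level (log2(CPM + 1), horizontal axis) of each of the 15329 genes over 18 libraries. The 8 genes with an adjusted p under 0.05 are red and named. They span mean levels from *Cytl1*, near 1 CPM, to *Tmem151b*.

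*Ccny* was measured first, since it checks the labels. In WT mice it ranged from 106.6 CPM over a median of 148.2 to 158.5 CPM, and in *Ccny* KO mice from 73.96 over 78.61 to 95.78 CPM. No KO library reached the lowest WT library. The difference was -0.72 (SE 0.0588, limma adjusted p = 4.76e-06), with a 95% interval from -0.84 to -0.60. The ratio of KO to WT on this scale was 0.607, so that a large share of the reads on the gene remained in KO mice. In an exact two-sided permutation test of genotype within states p was 0.00025, the smallest that the 8000 arrangements can give. The gene is on chromosome 18 (GRCm38, 9312304 to 9450154, minus strand). The part of the gene that the remaining reads came from was not analysed here.

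On chromosome 18 no gene passed other than *Ccny*. Of 38 genes tested within 5 Mb of it none passed and 3 had an unadjusted p under 0.05 (7.89%), and between 5 and 10 Mb 0 of 12 passed and 1 had such a p (8.33%). The lowest adjusted p within 5 Mb was 0.597, for *Cables1*. Between 10 and 20 Mb 1 of 29 genes had an unadjusted p under 0.05 (3.45%), and beyond 20 Mb 33 of 345 (9.57%). Over all of chromosome 18 the share was 9.18%, or 39 of 425 genes. This was the highest of any chromosome, against 7.39% of all genes tested. The 7 other genes that passed were on chromosomes 2, 3, 5, 8, 12 and 17, with *Hs3st1* and *Cytl1* 1.87 Mb apart on chromosome 5.

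The nearest relatives and partners of cyclin Y did not pass. *Ccnyl1*, the cyclin Y-like paralog, had a median of 11.2 CPM in WT and 10.13 CPM in KO libraries. All 9 KO libraries lay within the WT range, and the difference was -0.10 (SE 0.0623, adjusted p = 0.736, 95% interval from -0.23 to 0.03). The kinases *Cdk14* and *Cdk16*, which cyclin Y activates, differed by -0.01 (95% interval from -0.12 to 0.11) and -0.03 (from -0.17 to 0.10). *Cdk17* and *Cdk18* of the same kinase family differed by 0.08 (from -0.08 to 0.24) and -0.01 (from -0.18 to 0.16), and *Cdk15*, measured under 1 CPM, by 0.04. The 6 Ywha genes encode adaptor proteins that bind phosphorylated partners, cyclin Y among them. Their differences ran from -0.05 for *Ywhaq* to 0.09 for *Ywhaz*, with adjusted p between 0.757 and 0.922. Of the 13 members of this list, 1, *Ccny*, passed.

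Of the 3 genes that rose, *Znrf1* separated the genotypes completely. It encodes a ubiquitin ligase with a RING finger that is abundant in neurons, and lies on chromosome 8 (GRCm38, 111536097 to 111626030, plus strand). WT libraries ranged from 95.29 over 104.5 to 137.9 CPM and KO libraries from 142 over 145 to 162.7 CPM. All 9 KO libraries were above the highest WT library, which was WT_OL replicate 2. The difference was 0.49 (SE 0.0562, adjusted p = 0.000551), or 1.4 times WT. By state it was 0.62 in Basal, 0.29 in OL and 0.55 in RL, with an SE of 0.0825 each, and the state-by-genotype interaction had an unadjusted p of 0.0286 and an adjusted p of 0.568. At its 3' end, exons of *Znrf1* overlap exons of *Ldhd* on the opposite strand. The sources do not state whether the counting used strand, so reads of the shared stretch cannot be assigned. *Ldhd*, which encodes a lactate dehydrogenase of D-lactate, was low, with medians of 10.2 CPM in WT and 9.805 CPM in KO libraries, and differed by -0.02.

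*Tmem151b*, which encodes a transmembrane protein (chromosome 17, 45541952 to 45549677, minus strand), showed the largest rise. It went from 97.02 over 160.1 to 205.6 CPM in WT and from 162.7 over 225.2 to 256.1 CPM in KO libraries. Of the 9 KO libraries 5 were above every WT library, and in Basal and in RL all KO libraries exceeded all WT libraries of that state. In OL the genotypes overlapped. The difference was 0.55 (SE 0.0703, adjusted p = 0.00179), with 0.77 in Basal, 0.34 in OL and 0.53 in RL. WT libraries themselves differed between states for this gene, with a mean of 104 ± 8.92 CPM in WT_Basal and 179 ± 26.3 CPM in WT_OL (SD, n = 3). Its exons overlap those of *Tcte1* on the opposite strand, a testis gene that was near 2 CPM in both genotypes and differed by -0.01.

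*Ptpn1* encodes a tyrosine phosphatase of the endoplasmic reticulum that acts on the insulin and leptin receptor pathways (chromosome 2, 167932057 to 167979385, plus strand). It ranged from 50.39 over 59.95 to 67.03 CPM in WT and from 53.47 over 72.72 to 80.54 CPM in KO libraries. Within each state all 3 KO libraries exceeded all 3 WT libraries, although the ranges over the states overlapped. The difference was 0.27 (SE 0.0443, adjusted p = 0.0271), and it was even across states at 0.23, 0.27 and 0.30 in Basal, OL and RL. No other annotated gene shares its exons.

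Among the genes that fell beside *Ccny*, *Clec14a* had the lowest p. It encodes a lectin-like membrane protein of endothelial cells, the cells that line blood vessels (chromosome 12, 58264720 to 58269290, minus strand). WT libraries ranged from 4.884 over 6.729 to 10.22 CPM and KO libraries from 3.65 over 4.291 to 6.267 CPM. All KO libraries were below all WT libraries within each of the 3 states. The difference was -0.49 (SE 0.0692, adjusted p = 0.00497), with -0.43, -0.48 and -0.55 in Basal, OL and RL. With the mean of the endothelial marker list as a covariate it was -0.40 with an adjusted p of 0.216, and with that of the smooth muscle list -0.32 with an adjusted p of 0.960. Both lists were themselves lower in *Ccny* KO mice, with medians of -0.178 and -0.484, so these covariates overlap with genotype. Of all genes 3 passed with the endothelial and 1 with the smooth muscle covariate. The part of cell content in the fall of *Clec14a* was not tested.

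*Hs3st1* encodes a sulfotransferase that modifies heparan sulfate (chromosome 5, 39613935 to 39755475, minus strand). It ranged from 15.56 over 19.06 to 20.31 CPM in WT and from 13.68 over 15.24 to 17.87 CPM in KO libraries, and the genotypes did not overlap within any state. The difference was -0.26 (SE 0.0461, adjusted p = 0.0489). *Trim59* belongs to the tripartite motif family of ubiquitin ligases (chromosome 3, 69035288 to 69044755, minus strand). It ranged from 16.76 over 18.66 to 34.44 CPM in WT and from 11.26 over 14.61 to 23.88 CPM in KO libraries. Its level in both genotypes was highest without training, at 31.4 ± 3.74 CPM in WT_Basal and 21.5 ± 3.41 CPM in KO_Basal (SD, n = 3), and the ranges did not overlap within any state. The difference was -0.50 (SE 0.0895, adjusted p = 0.0489).

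*Cytl1* encodes a small secreted protein (chromosome 5, 37735519 to 37739820, plus strand) and was the least abundant gene that passed. It ranged from 0.823 over 1.385 to 2.297 CPM in WT and from 0.309 over 0.586 to 1.144 CPM in KO libraries, with overlap in RL. The mean was 1.358 ± 0.478 CPM in WT and 0.605 ± 0.272 CPM in KO libraries (SD, n = 9). The difference was -0.55 (SE 0.0969, adjusted p = 0.0489). *Hs3st1*, *Cytl1* and *Trim59* shared an adjusted p just under 0.05. Leaving out 1 library at a time, *Cytl1* kept an adjusted p under 0.05 in 5 of 18 fits, *Hs3st1* in 4, *Trim59* in 3 and *Ptpn1* in 6, whereas *Ccny*, *Znrf1*, *Tmem151b* and *Clec14a* kept it in all 18.

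**Figure D2:**
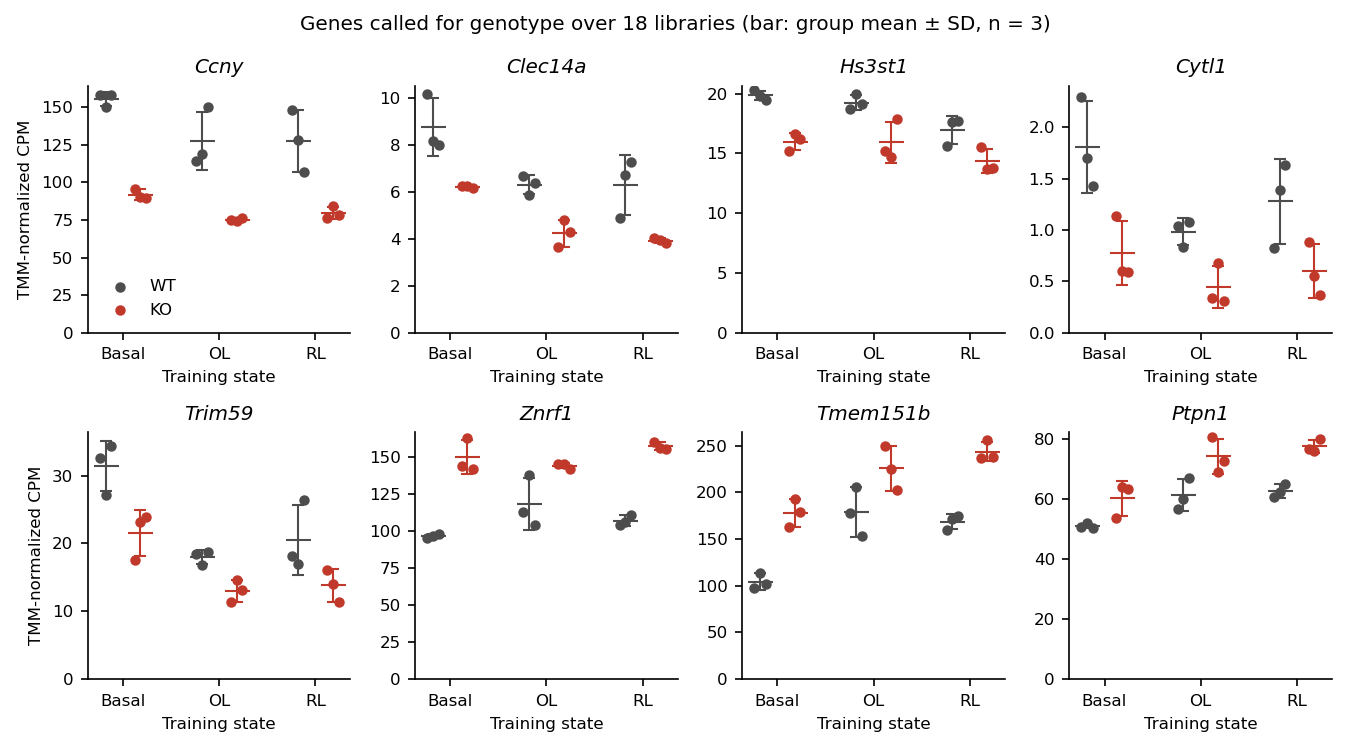
Level (TMM-normalized CPM, vertical axes from 0) of the 8 genes that passed, in each library, by training state and genotype (WT grey, KO red), with group means ± SD (n = 3). For 6 of the 8 genes the KO and WT points of a state lie apart in all 3 states, and the exceptions are *Tmem151b* in OL and *Cytl1* in RL.

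Separation of the genotypes was counted as a description over all genes. In 3 genes, 0.0196%, the 9 KO and 9 WT values did not overlap, with *Znrf1* above and *Ccny* and *Adh5* below. *Adh5*, whose product detoxifies formaldehyde and S-nitrosoglutathione, was singled out by this count. It ranged from 60.78 over 61.96 to 66.3 CPM in WT and from 51.41 over 58.64 to 60.17 CPM in KO libraries. The separation was complete but small, and the difference of -0.11 (SE 0.0345) had an adjusted p of 0.478. Within each of the 3 states, with the same direction in all, 14 genes did not overlap (0.0913%). These were 7 genes above, namely *Znrf1*, *Ptpn1*, *D17Wsu92e*, *Ppp2cb*, *Mcoln1*, *Ppp1r26* and *Sptbn1*, and 7 below, namely *Ccny*, *Clec14a*, *Hs3st1*, *Trim59*, *Adh5*, *Cdc42ep1* and *Clec2d*. Thus 6 of these 14 were among the 8 genes that passed.

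The genes higher in *Ccny* KO mice that came next by p did not pass over all 18 libraries, and 5 of these 7 passed without WT_OL replicate 2 or WT_RL replicate 1. *D17Wsu92e* differed by 0.20 (SE 0.0373, adjusted p = 0.0533), and 6 of 9 KO libraries were above every WT library. *Hif3a*, a subunit of the hypoxia-inducible factors, differed by 0.45 (adjusted p = 0.0741), with 0.55 in Basal, 0.14 in OL and 0.66 in RL. *Usp27x*, a deubiquitinase gene of the X chromosome, differed by 0.33 (adjusted p = 0.0993). *Nptxr*, the receptor of the neuronal pentraxins that cluster AMPA receptors, differed by 0.51 (adjusted p = 0.129), but its exons are shared with *Npcd* on the same strand, so the counts cannot be assigned to 1 of them. *Adra2c*, an alpha2 adrenergic receptor, differed by 0.30, *Egr4*, an activity-induced transcription factor, by 0.34, and *Ppp2cb*, a catalytic subunit of protein phosphatase 2A, by 0.17, with adjusted p of 0.141, 0.169 and 0.169. Without WT_RL replicate 1 the limma adjusted p was 0.0329 for *D17Wsu92e*, 0.0498 for *Hif3a*, 0.0202 for *Usp27x* and 0.0202 for *Nptxr*. Each of these genes had its highest WT value in WT_RL replicate 1, so its difference is widened by construction without that library. Without WT_OL replicate 2 the limma adjusted p was 0.0233 for *D17Wsu92e*, 0.0412 for *Hif3a* and 0.0465 for *Adra2c*. The same holds there for *Adra2c*, whose highest WT value was in WT_OL replicate 2. Without both libraries all 5 passed, with adjusted p from 0.0125 to 0.0479.

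By the criteria of a change over 1.5-fold with an unadjusted p under 0.05, 15 genes were counted, 0.0979%, and *Ccny* alone of them also passed the adjusted test. Of these 8 were higher and 7 lower in KO libraries. They are described here because the criterion selected them, with adjusted p of 0.169 or more for all but *Ccny*. Among the higher genes were *Ecel1*, *Rxrg*, *Dlk1*, *Drd1*, *Slc10a4*, *Col6a4* and *Irs4*. Several are best known outside the hippocampus, such as *Drd1* and *Rxrg* in the striatum and *Irs4* and *Dlk1* in the hypothalamus. *Drd1*, a dopamine receptor, ranged from 4.81 over 5.79 to 21 CPM in WT and from 4.54 over 14.5 to 35.6 CPM in KO libraries, with wide overlap, and differed by -0.27 in Basal, 0.94 in OL and 1.61 in RL. *Irs4* reached 8.81 CPM in KO_Basal replicate 1, against a KO median of 0.911 CPM.

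The lower genes were *Acta2*, *Tagln* and *Cnn1* of the contractile apparatus of smooth muscle, *Alas2* of haem synthesis in red blood cells, *Irx2* and *Pou4f1*, which are transcription factors of thalamic and habenular neurons among others, and *Ccny*. *Irx2* and *Pou4f1* were near 0 in most libraries, with medians of 0.462 and 0.133 CPM in WT, and their highest values, 4.63 and 4.39 CPM, were both in WT_RL replicate 3. *Alas2* had its highest value, 32.8 CPM, in WT_OL replicate 1, against a WT median of 5.18 CPM.

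The effect was then compared between states, whose differences share no libraries. The spread of each gene was estimated from all 18 libraries, so the calls within 1 state also depend on the libraries of the others. Within Basal 3 genes passed (0.0196%), namely *Ccny*, *Znrf1* and *Tmem151b*. Within OL 10 passed (0.0652%). *Ccny* fell there by 0.75 on the log2 scale, the inducible heat shock genes *Hspa1a* and *Hspa1b* rose by 1.44 and 1.54, *Banp* and *P4ha1* rose, and *Aox3*, *Arhgap29*, *Gjb2*, *Pf4* and *Ranbp3l* fell. Apart from *Ccny* none of these 10 passed in the joint test. Within RL 0 passed by limma (0%), with 756 genes at an unadjusted p under 0.05. The count in OL depended on single libraries. It was 0 without WT_OL replicate 2 or any of the 3 KO_OL libraries and 2536 without WT_OL replicate 3. Without WT_Basal replicate 3, a library of another state, it was 3. The count in RL was 59 without WT_RL replicate 1.

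The difference between states was tested itself. By limma's test of the interaction 0 genes (0%) passed, and 1306 (8.52%) had an unadjusted p under 0.05. Without WT_RL replicate 1 the count was 28. Over the 13978 genes with a mean of at least 1 CPM, the effects in Basal and OL had a Pearson r of -0.174 and a Spearman rho of -0.236, those in Basal and RL -0.272 and -0.13, and those in OL and RL 0.249 and 0.245. Genes are not independent replicates, and these values describe the libraries at hand. The sign was the same in 40.1% of them for Basal and OL, 44.1% for Basal and RL and 59.5% for OL and RL. In 3055 of these genes, 21.9%, the effect had 1 sign in all 3 states, which is fewer than 3 independent, evenly split signs would give. The 8 genes that passed jointly had 1 sign in all 3 states, which the joint test favours.

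**Figure D3:**
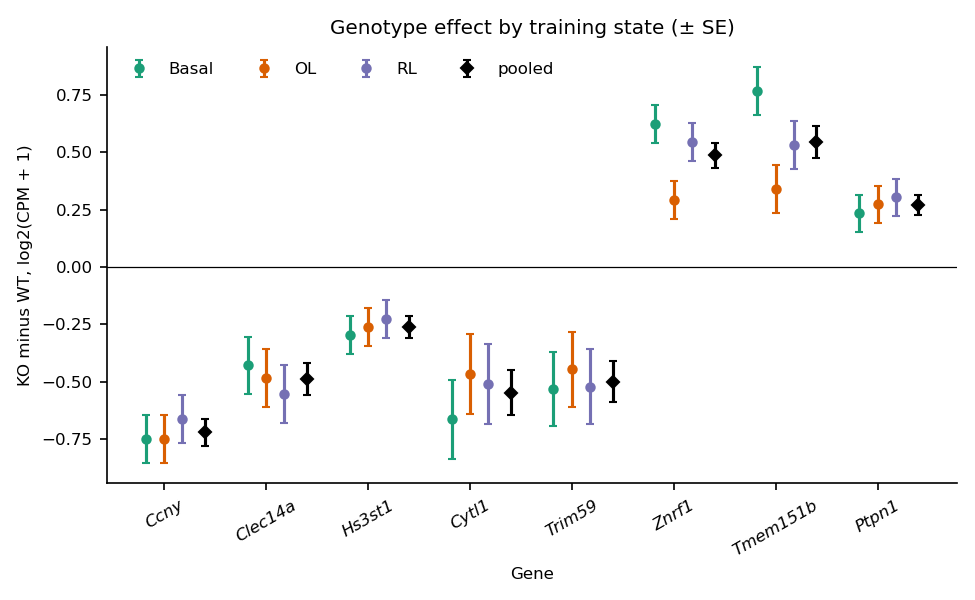
Genotype effect (KO minus WT, log2(CPM + 1), vertical axis) of the 8 genes that passed, in Basal, OL and RL (coloured circles) and pooled (black diamonds), with standard errors. *Ccny* stays between -0.75 and -0.66 in the 3 states, and *Znrf1* and *Tmem151b* are lowest in OL, at 0.29 and 0.34.

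Gene lists are described by counts and medians. Over all 18 libraries none of the 37 lists had a member that passed other than *Ccny*, so the counts below are of unadjusted p under 0.05, to be read against 3.72% of all genes higher and 3.67% lower. The members named from these lists were chosen after their values were seen. Members of 1 list move together from library to library and are not independent. In tissue RNA, fewer cells of a type and less RNA per cell cannot be told apart.

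Markers of vascular smooth muscle were lower in *Ccny* KO mice. Of the 12 measured members 12 were lower and 10 had an unadjusted p under 0.05, with a median of -0.484 and state medians of -0.491, -0.711 and -0.262 in Basal, OL and RL. *Acta2*, the actin of smooth muscle, ranged from 21.54 over 39.66 to 54.11 CPM in WT and from 17.98 over 21.22 to 33.31 CPM in KO libraries. Of the 9 KO libraries 5 were below every WT library. It differed by -0.71 (SE 0.155, adjusted p = 0.169). *Myh11*, the smooth muscle myosin, differed by -0.58 (adjusted p = 0.282) and *Des*, encoding desmin, by -0.46 (adjusted p = 0.208).

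All 12 stayed lower without WT_OL replicate 2, without WT_RL replicate 1, without both and without any 1 training state. The count at an unadjusted p under 0.05 was 10, 11 and 11 in the first 3 of these fits. It was 10 without Basal, 7 without OL and 11 without RL. Whether any of these genes passed depended on WT_RL replicate 1, the WT library with the lowest level of the list. The difference of the list is widened by construction when that library is left out. Without it 31 genes passed, 7 higher and 24 lower, among them the 8 above. Of the 12 smooth muscle genes 5 then passed, including *Acta2* at -0.83 (adjusted p = 0.00999), *Tagln* at -0.83 (0.00263), *Myh11* at -0.69 (0.0202) and *Des* at -0.56 (0.00263). With both WT_OL replicate 2 and WT_RL replicate 1 left out, 29 genes passed, 11 higher and 18 lower, of which 4 were in this list. With the mean of the smooth muscle list as a covariate, *Ccny* was the 1 gene that passed. The list itself was lower in *Ccny* KO mice, so this covariate overlaps with genotype.

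Markers of the oligodendrocyte lineage, the cells that form myelin, were also lower. Of 20 members 18 were lower and 16 had an unadjusted p under 0.05, with a median of -0.321 and state medians of -0.388, -0.427 and -0.151. *Opalin*, a membrane protein of myelin, had medians of 35.2 CPM in WT and 23.6 CPM in KO libraries and differed by -0.46 (adjusted p = 0.232). It passed without WT_RL replicate 1, at -0.54 (adjusted p = 0.0205), and without both libraries, at -0.49 (adjusted p = 0.0194). *Mbp*, which encodes myelin basic protein, had medians of 3672 CPM in WT and 2955 CPM in KO libraries and differed by -0.31 (adjusted p = 0.629). *Sox10*, a transcription factor of the lineage, ranged from 40.1 over 43.6 to 60.2 CPM in WT and from 28.1 over 36 to 43.3 CPM in KO libraries, with 7 of 9 KO libraries below every WT library. Its difference was -0.31 (SE 0.0819, adjusted p = 0.346). The members that were higher were *Pdgfra* at 0.03 and *Cspg4* at 0.15, both found in oligodendrocyte precursors. Neither had an unadjusted p under 0.05. Other members that are not genes of myelin were lower, with *Olig1* at -0.16, *Olig2* at -0.18 and *Gpr17* at -0.06. A difference between precursors and mature cells was not tested. The count of members at an unadjusted p under 0.05 was 11 without WT_OL replicate 2, 16 without WT_RL replicate 1, 17 without both libraries, 6 without Basal and 5 without OL.

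Of 18 endothelial markers 17 were lower and 9 had an unadjusted p under 0.05, with a median of -0.178. *Cldn5*, the tight junction protein of brain endothelium, ranged from 26.5 over 31.1 to 45.4 CPM in WT and from 17.1 over 23.6 to 33.7 CPM in KO libraries. Of the KO libraries 6 were below every WT library, and the difference was -0.42 (SE 0.0938, adjusted p = 0.199). *Kdr*, a receptor of vascular endothelial growth factor, differed by -0.27 (adjusted p = 0.386). Other members differed little, such as *Flt1* at -0.04 and *Slc2a1*, the glucose transporter of the vessel wall, at 0.05. Without OL 2 of the 18 had an unadjusted p under 0.05.

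Markers of other cells differed in direction between the states. Of 16 astrocyte markers 16 were lower with a median of -0.0916, and 3 had an unadjusted p under 0.05, *Sox9* among them at -0.19. Their state medians were 0.131 in Basal, -0.223 in OL and -0.207 in RL. Of 16 microglial markers 9 were lower with a median of -0.00884, and 0.167, -0.136 and -0.0717 in the states. Meningeal fibroblast markers were lower in 13 of 16, with a median of -0.28 and 4 at an unadjusted p under 0.05, which became 0 without WT_OL replicate 2. Their state medians were 0.105 in Basal, -0.802 in OL and -0.0255 in RL, and without OL 9 of 16 were lower with a median of -0.000349. Choroid plexus markers varied most. Their summed level ran from 354 to 13759 CPM over WT and from 428 to 8391 CPM over KO libraries, and their median difference was -1.92 in Basal, 0.389 in OL and 0.778 in RL, with none at an unadjusted p under 0.05 in the joint test. With the mean of the choroid plexus list as a covariate 8 genes passed, the same 8 as without it. The part of these cells in the other differences was not tested.

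**Figure D4:**
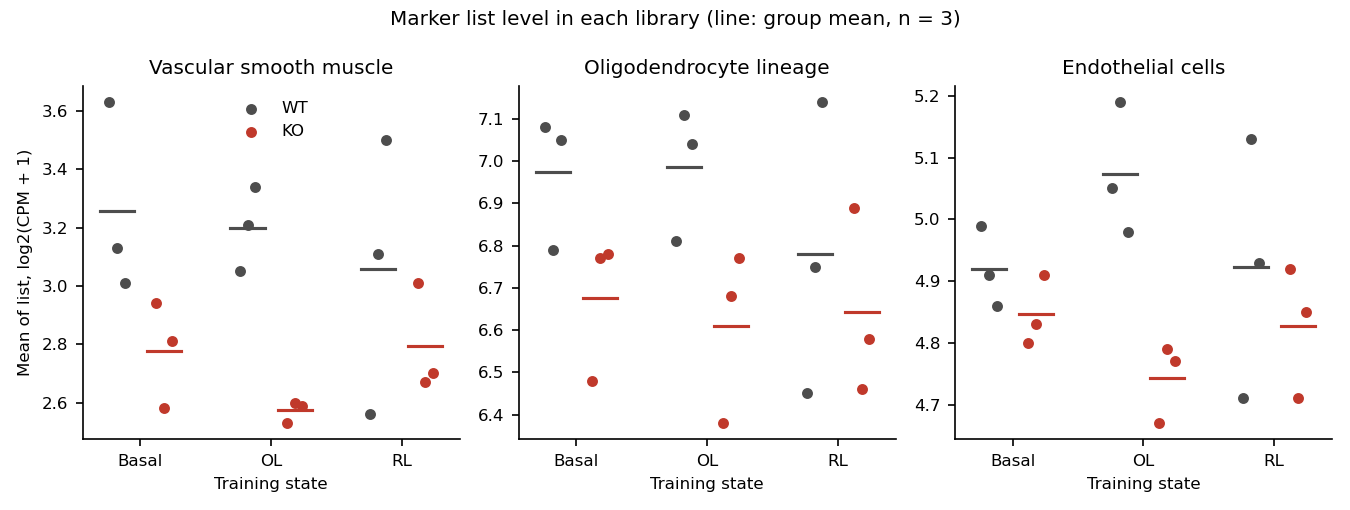
Mean level (log2(CPM + 1), vertical axes, which do not start at 0) of the smooth muscle, oligodendrocyte and endothelial marker lists in each library, by training state and genotype (WT grey, KO red), with group means as lines (n = 3). In OL every KO point lies under every WT point in all 3 lists. In RL the genotypes overlap, and WT_RL replicate 1 is the lowest WT point of all 9 in each list.

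In the actin and cofilin pathway, 49 genes were measured, with 23 higher and 26 lower and a median of -0.00641. At an unadjusted p under 0.05, 2 of 49 were higher and 2 of 49 lower, near the 3.72% and 3.67% of all genes. The higher were *Limk2* and *Ssh2*, a LIM kinase and a cofilin phosphatase, at 0.08 and 0.17. The lower were *Acta2* at -0.71, which is also in the smooth muscle list, and *Dstn*, encoding the cofilin relative destrin, at -0.10. *Cfl1*, which encodes cofilin, had medians of 769.3 CPM in WT and 766.1 CPM in KO libraries and differed by -0.002 (95% interval from -0.11 to 0.11). *Limk1* differed by -0.05 (from -0.18 to 0.07), *Actb* by -0.03 (from -0.16 to 0.10) and *Rac3*, a small GTPase that acts on actin, by 0.10 (from -0.08 to 0.28). For *Actb* the states differed in sign, with -0.23 in Basal and 0.15 in OL.

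Wnt signalling genes were mixed. Of 25 genes of the receptor complex and the beta-catenin machinery, 1, *Fzd2*, was higher and 3 were lower at an unadjusted p under 0.05. *Fzd2*, a Wnt receptor, differed by 0.25, the receptors *Fzd6* and *Fzd10* by -0.27 each, and *Lef1*, a transcription factor bound by beta-catenin, by -0.40. *Lef1* was also highest in WT_RL replicate 3, at 10.7 CPM against a WT median of 5.14 CPM. *Ctnnb1*, encoding beta-catenin, differed by 0.01. Of 19 Wnt target and feedback genes 8 were higher and 11 lower, with a median of -0.0798. The feedback inhibitors *Apcdd1* (-0.25), *Notum* (-0.29), *Nkd1* (-0.27) and *Rnf43* (-0.24) were the 4 lower at an unadjusted p under 0.05. The 1 higher at such a p was *Ccnd1* at 0.21, which encodes cyclin D1. Other feedback genes were not past it, with *Axin2* at -0.08, *Nkd2* at 0.11 and *Znrf3* at 0.11. *Apcdd1* and *Ccnd1* had the lowest p, with limma adjusted p of 0.394 and 0.294. *Wnt11*, a Wnt ligand that is in none of the lists and was singled out after its values were seen, ranged from 0.741 over 0.999 to 1.48 CPM in WT and from 0.286 over 0.574 to 0.819 CPM in KO libraries, with 8 of 9 KO libraries below every WT library. It differed by -0.38 (adjusted p = 0.169), and passed without WT_RL replicate 1 (-0.42, adjusted p = 0.0441) and without both libraries (-0.44, adjusted p = 0.0479). *Fzd6* passed in the same fits, with adjusted p of 0.0338 and 0.0479.

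Genes of AMPA receptors and their auxiliary proteins were higher in 20 of 20, but by little, with a median of 0.0993. The state medians were 0.0212 in Basal, 0.213 in OL and 0.0365 in RL, and 15 of 20 were higher without WT_OL replicate 2. *Shisa9* and *Gsg1l*, both auxiliary subunits, had an unadjusted p under 0.05. *Shisa9* ranged from 30.6 over 50 to 60.5 CPM in WT and from 49.7 over 60.8 to 68.9 CPM in KO libraries, with 5 KO libraries above every WT library, and differed by 0.34 (adjusted p = 0.494). The pore-forming subunits *Gria1* and *Gria2* differed by 0.09 and 0.11 (adjusted p = 0.851 and 0.759), with all KO values inside the WT range. Of 12 measured genes for NMDA receptor subunits and CaMKII, 1 had an unadjusted p under 0.05. It was *Camk2n1*, which encodes an inhibitor of CaMKII, with medians of 873 CPM in WT and 1108 CPM in KO libraries. It differed by 0.43 (adjusted p = 0.456), with 0.75 in Basal, 0.10 in OL and 0.46 in RL. It passed without WT_OL replicate 2, at 0.53 (adjusted p = 0.0312), and without both libraries, at 0.55 (adjusted p = 0.0268). Its highest WT value, 1313 CPM, was in WT_OL replicate 2, so leaving that library out widens the difference by construction.

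Genes induced by glucocorticoids, the stress hormones, were higher in 12 of 15, with a median of 0.157 and 6 at an unadjusted p under 0.05. Among these *Per1* differed by 0.20, *Tsc22d3* by 0.19, *Fkbp5* by 0.21 and *Ddit4* by 0.16. *Per1* had an adjusted p of 0.231 and is also a gene of the circadian clock. Its relative *Per2* ranged from 28.5 over 47.7 to 57.2 CPM in WT and from 29.6 over 60.2 to 65.7 CPM in KO libraries. Of these 6 KO libraries were above every WT library, and the difference was 0.26 (adjusted p = 0.169). Of 18 circadian clock genes 11 were higher and 7 lower, with a median of 0.0193. *Per1* and *Per2* were the 2 of them at an unadjusted p under 0.05, and *Per3* and *Arntl* differed by -0.03 each. The hours at which the mice were taken are not given in the sources used here. The count of 6 glucocorticoid-induced genes was the same without WT_OL replicate 2 and without both libraries. It was 4 without WT_RL replicate 1 and 1 without RL.

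Activity-induced genes were higher in 23 of 28, with a median of 0.116, and 3 had an unadjusted p under 0.05. Their state medians were 0.0799 in Basal, 0.000329 in OL and 0.137 in RL. Without Basal 15 of 28 were higher, with a median of 0.021, and without OL 10 were higher and 2 lower at an unadjusted p under 0.05. The 3 were *Egr4* at 0.34, *Egr1* at 0.40 (adjusted p = 0.292) and *Fosb* at 0.25. *Egr1* ranged from 79 over 117 to 185 CPM in WT and from 77.3 over 182 to 225 CPM in KO libraries, and the KO values reached both below and above the WT range. *Fos*, *Npas4* and *Arc* changed sign between states, with 1.12, 1.12 and 0.70 in Basal and -0.47, -0.43 and -0.32 in OL. Jointly *Arc* differed by 0.15 (adjusted p = 0.831). Heat shock and chaperone genes were higher in 21 of 24 with 5 at an unadjusted p under 0.05, and this rested on OL, where the median was 0.314 against -0.0145 in Basal and -0.0787 in RL. Without OL none had an unadjusted p under 0.05 and 9 of 24 were higher.

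Of 16 interneuron markers 14 were higher, with a median of 0.114 and state medians of 0.042, 0.206 and 0.144 in Basal, OL and RL. Without OL 13 of 16 were higher and 1 had an unadjusted p under 0.05. *Dlx1* (0.37, adjusted p = 0.457) and *Lhx6* (0.23), transcription factors of interneurons, and *Slc32a1* (0.22), the vesicular GABA transporter, had an unadjusted p under 0.05, and *Pvalb*, which encodes parvalbumin, was lower at -0.22. *Slc32a1* differed by -0.037 in Basal, 0.575 in OL and 0.122 in RL. Both *Slc32a1* and *Dlx1* were highest in KO_OL replicate 3, at 126 and 34.6 CPM. Markers of adult neurogenesis were higher in 12 of 14 with a median of 0.158, and 0 had an unadjusted p under 0.05.

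Large families of housekeeping genes differed together by little, and not alike, in the states. Of 79 cytosolic ribosomal protein genes 74 were lower, with a median of -0.0615 that was made up of 0.146 in Basal, -0.196 in OL and -0.115 in RL. Of 74 subunits of oxidative phosphorylation 68 were lower, with a median of -0.0643 and 0.0723, -0.147 and -0.118 in the same order. None of either list had an unadjusted p under 0.05. Both lists were highest in WT_OL replicate 2 and lowest in KO_RL replicate 2. Of 79 potassium channel genes 7 were higher and 5 lower at an unadjusted p under 0.05. Among the latter *Kcng4*, a modifying subunit of voltage-gated channels, ranged from 6.08 over 9.34 to 14.3 CPM in WT and from 4.71 over 6.28 to 7.61 CPM in KO libraries, and differed by -0.50 (adjusted p = 0.161). It passed without WT_RL replicate 1, at -0.55 (adjusted p = 0.0372), and without both libraries, at -0.56 (adjusted p = 0.0479). The other 16 lists, the circadian clock genes among them, had medians from -0.136 to 0.0938, and 0 of their members passed by limma. They cover other receptors, neuron types and gene families.

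**Figure D5:**
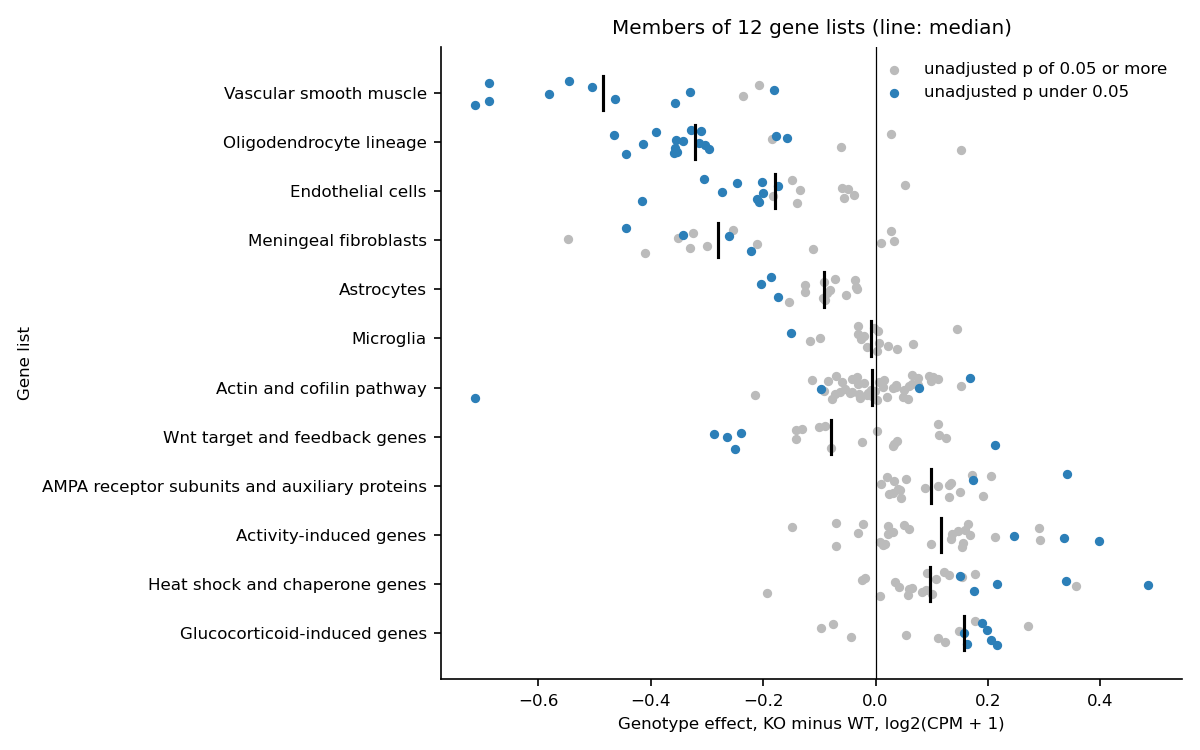
Genotype effect (KO minus WT, log2(CPM + 1), horizontal axis) of each member of 12 gene lists, with the list median as a black line and members at an unadjusted p under 0.05 in blue. Markers of smooth muscle, oligodendrocytes and endothelium lie mostly left of 0 with medians of -0.484, -0.321 and -0.178, and AMPA receptor genes lie right of 0 with a median of 0.0993.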

How the data were processed

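Hippocampal mRNA was sequenced in 18 libraries. The authors used STAR 2.5.1 to map reads to mm10 and count them on genes, normalized the counts by TMM in edgeR 3.12.1 (R 3.3.0) and deposited log2 values. The deposited log2 values are log2(CPM + 1): after removal of the logarithm every value was a whole multiple of 1 step per library, within 0.01 reads, which gave the reads per library. The methods describe CPM floored at 1 instead, and this was tried as an alternative. The labels and the methods name different library kits, and whether strand was used in counting is not given in the sources used here.

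The values were fitted with limma 3.58.1 in R 4.3.3 (trend of the variance, state as a block, two-sided) for genes above 0 in at least 3 libraries, which all 15329 were. Intervals are 95%. Replicates within groups differed by more than counting noise, with a chi-square per gene of 8.82 to 105. The fit was tested on simulated data. Genes named were *Ccny*, its family and partners, the genes that passed, the 10 lowest p among higher genes with a mean of at least 1 CPM, and 6 genes of the pathway followed. All others were chosen after their values were seen. The members, the 37 lists and the tests were chosen with earlier results of these data known. Positions are from GENCODE M21, in which 14769 symbols were found directly, 450 by a synonym and 110 not at all. Figures were drawn with matplotlib 3.10.9. Some genes of the lists and counts are not reported here by name.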

Additional observations from a re-analysis of the deposited data

Results flagged for a closer look

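Among the genes named, 2 had a value that lay apart from the other 8 of its genotype by Dixon's criterion. Both were in WT_OL replicate 2. The criterion was applied on the log2(CPM + 1) scale, and the gaps below are shares of the range on that scale, not of the CPM printed beside them. *Ywhaz* was at 607 CPM there, with the nearest other WT library at 739 CPM, a gap of 0.512 of the whole log2 range. *Znrf1* was at 138 CPM, with the nearest other WT library at 113 CPM, a gap of 0.529 of the log2 range. The critical value for 9 samples is 0.493, and chance flags about 1 in 20 groups. Without this library the difference of *Znrf1* was 0.53 and that of *Ywhaz* 0.04, and *Znrf1* passed with and without it.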

How the results depend on the processing

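*Ccny* passed under all 41 alternatives, with differences between -0.79 and -0.68, whereas the number of genes that passed depended on libraries and covariates. In place of 8 genes, 2 passed without the state term, 1 without Basal, 2 without RL and 5 with 1 mean per group, against 18 with library weights and 29 without both WT_OL replicate 2 and WT_RL replicate 1. With the smooth muscle, endothelial or oligodendrocyte list as a covariate it was 1, 3 or 4, and these lists themselves were lower in *Ccny* KO mice. Leaving out 1 library gave 4 to 31 genes, the latter without WT_RL replicate 1, and 14 without WT_OL replicate 2. Leaving out 1 library gave 0 to 28 genes for the interaction, 0 to 4 within Basal, 0 to 2536 within OL and 0 to 59 within RL. The 15 genes past 1.5-fold became 28 with CPM floored at 1, 40 with a pseudocount of 0.25, 83 by voom on recovered reads, 66 without Basal, 47 without RL, 23 without both libraries, 26 with the choroid plexus covariate, 45 with that of smooth muscle, 69 with that of oligodendrocytes, and 10 to 28 without 1 library. With the smooth muscle covariate 44 of 45 were higher, with that of oligodendrocytes 68 of 69, and with that of the endothelium 10 of 11. Under CPM floored at 1, 14 were higher and 14 lower, by voom 28 and 55, and without RL 19 and 28. The cause of these changes was not tested. The adjusted p of *Znrf1* was 0.252 without Basal, 0.109 without RL and 0.0582 with the smooth muscle covariate. Its difference stayed between 0.42 and 0.58 under all 41 alternatives. The adjusted p of *Tmem151b* was 0.702 without the state term, and that of *Clec14a* 0.111 with the replicate block. Of the 41 alternatives *Znrf1* passed in 38, *Tmem151b* in 37, *Clec14a* in 33, *Ptpn1* in 20, *Hs3st1* in 16 and *Trim59* in 12. *Cytl1* passed in 15 of 40. Different genes passed in some fits. Without OL 7 passed, of which 3 were among the 8, and without RL 1 of the 2 was. The fits without both libraries and with the smooth muscle, endothelial and oligodendrocyte covariates were chosen after seeing the data. So was the choice to report genes without WT_OL replicate 2 or WT_RL replicate 1. A count test in edgeR was not run, since the deposited unit is a log2 value.

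Same-numbered libraries of the genotypes did not deviate together (correlations from -0.635 to 0.0684), so the numbers were not taken as a pairing. With the replicate block within states 3 genes passed and with the block across states 5.

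Genes that did not pass changed sign in 68 cases, with adjusted p of 0.697 or more. With quantile normalization *Ywhah* was -0.0126. With library weights *Cdk16* was 0.0189, *Cdk17* -0.00498 and *Cfl1* 0.0103. With the hypothalamic covariate *Cfl1* was 0.000672. Without Basal *Actb* was 0.0735, *Rac3* -0.0313, *Cfl1* 0.00945 and *Arc* -0.119. Without OL *Cdk16* was 0.0393, *Ywhag* -0.0101 and *Ywhah* -0.0182. Without RL *Cdk14* was 0.0307, *Cdk18* 0.0853, *Ywhae* 0.00973, *Limk1* 0.00521 and *Cfl1* 0.0272. Without both libraries *Cdk16* was 0.0238 and *Cfl1* 0.0145. With the smooth muscle covariate *Ccnyl1* was 0.041, *Cdk17* -0.00952, *Cdk18* 0.0896, *Ywhab* -0.0553, *Ywhag* -0.0182, *Ywhah* -0.12, *Ywhaz* -0.00809 and *Rac3* -0.000582. With the endothelial covariate *Cdk16* was 0.0561, *Cdk17* -0.0814, *Cdk18* 0.0185, *Ywhab* -0.0333, *Ywhag* -0.0629, *Ywhah* -0.0572, *Ywhaz* -0.0615 and *Limk1* 0.0251. With the oligodendrocyte covariate *Ccnyl1* was 0.0249, *Cdk17* -0.0128, *Cdk18* 0.00385, *Ywhab* -0.0442, *Ywhag* -0.027, *Ywhah* -0.0784 and *Ywhaz* -0.0101. Without 1 library *Cdk14* ran from -0.0429 to 0.0162, *Cdk15* from -0.00218 to 0.0845, *Cdk16* from -0.0619 to 0.0185, *Cdk18* from -0.0692 to 0.0242 and *Cfl1* from -0.0212 to 0.0185.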
